A study of Arabidopsis thaliana with 30 samples.

Results

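The transcripts described here are those of the mitochondrial genome of Arabidopsis thaliana, taken as every identifier of the gene count table that begins with ATMG. This rule found 152 identifiers among 32833 genes, and no measured value entered it. The table covers root cells sorted by fluorescence from seedlings labelled wild type, raised for 6 days at 22 °C in the D-Root device, which shades the root, with high phosphate (HPi) or low phosphate (LPi). LPi meant 5 µM phosphate by the treatment protocol but a medium lacking it by the sample labels, so the level is uncertain. Each cell type came from a single fluorescent line: WER::GFP marked epidermis, J0571 cortex, J0661 pericycle, SHR::GFP stele and J3411 lateral root cap, so a difference between cell types and a difference between lines cannot be told apart. The J lines are enhancer traps, in which GFP reports the cells where the trap is active. With 3 libraries at each phosphate level, the 5 cell types gave 30 libraries in 10 groups, and since the labels do not say whether these came from separate cultures, the p-values below reflect only how far the libraries scatter, which may be technical.

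Plant mitochondria keep a small genome that encodes core subunits of the respiratory chain and of ATP synthase, proteins for cytochrome c maturation, some ribosomal proteins, and the ribosomal and transfer RNAs of the organelle, while nearly all other mitochondrial proteins are made from nuclear genes. Ribosomal RNA makes up most of the RNA of the organelle. Unlike nuclear messengers, plant mitochondrial transcripts carry no stable poly(A) tail, and a tail added to them marks the RNA for decay. The cDNA was made with a SMART-Seq v4 ultra low input kit, which primes on poly(A), so the levels below are what this priming captured and are not the content of mitochondrial RNA in a cell.

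Part of the mitochondrial genome also exists as near-identical copies in the nucleus, which bears on whether a read can be given to a mitochondrial identifier. In the RefSeq assembly TAIR10.1, 73.4% of the 367808 bases of the mitochondrial genome aligned to a nuclear chromosome at 95% identity or more over at least 100 bases, nearly all of it to chromosome 2 (73.2%), where the longest alignment ran over 50638 bases at 99.897% identity. Every stretch of 100 bases was also looked up outside the mitochondrion, and 67.7% were found there without a mismatch. Of the 33 protein genes RefSeq places on the genome, 18 had over 90% of their stretches elsewhere, 10 had a smaller share, and ccmB, nad9, cox1, nad4L and atp4 had none. The 3 ribosomal RNA genes, rrn26, rrn18 and rrn5, had none either. The build used for the deposited counts is not given in the sources used here, and the RefSeq record does not pair its genes with ATMG identifiers, so this describes the sequence and not a given row of the table.

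The first 60 bases of 5 genes show the contrast, with the start codon in capitals. The cox3, atp1 and cob genes, for subunit 3 of cytochrome c oxidase, the alpha subunit of ATP synthase and apocytochrome b, each had an identical copy on chromosome 2, at chr2:3312592-3312651 (minus strand), chr2:3362505-3362564 (plus strand) and chr2:3450863-3450922 (plus strand). The cox1 gene, for subunit 1 of cytochrome c oxidase, and rrn26, the large ribosomal RNA, had none. On the RefSeq mitochondrial genome all 5 lie on the minus strand, cox3 at MT:330714-330773, atp1 at MT:68562-68621, cob at MT:182799-182858, cox1 at MT:116286-116345 and rrn26 at MT:143906-143965, and rrn26 has no start codon.
cox3: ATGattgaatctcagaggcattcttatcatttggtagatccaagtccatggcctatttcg
atp1: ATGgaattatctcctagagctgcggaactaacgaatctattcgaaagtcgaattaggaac
cob: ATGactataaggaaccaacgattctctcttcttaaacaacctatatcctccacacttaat
cox1: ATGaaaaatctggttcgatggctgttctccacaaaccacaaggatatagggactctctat
rrn26: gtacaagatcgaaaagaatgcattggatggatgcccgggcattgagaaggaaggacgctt

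**Figure D1:**
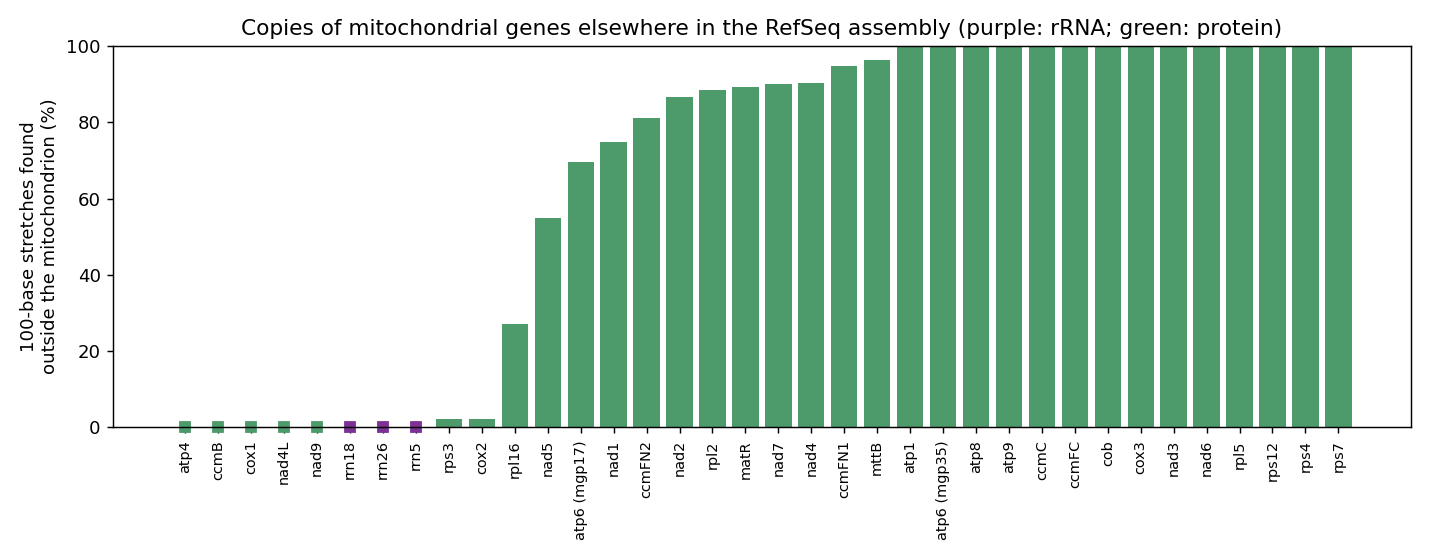
Each bar is a protein (green) or ribosomal RNA (purple) gene of the RefSeq mitochondrial genome, and its height is the percentage of its stretches of 100 bases that occur without a mismatch outside the mitochondrion. The 8 genes at the left stand at 0, among them the 3 ribosomal RNA genes, and 18 protein genes exceed 90%.

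Many of the copies have genes of their own in the table. RefSeq notes on 55 nuclear genes name 53 of the 152 mitochondrial identifiers, most of them as the best protein match. Some of the 55 carry only a pseudogene note, and those have no counts in the table. The notes are the only source used here for what an identifier encodes. Of the 53 named identifiers, 24 (45.3%) had no read in any library, against 43 of the 99 others (43.4%), so the shares without reads were close. The levels were not: 3 of the 53 (5.66%) reached a mean of 1 CPM (counts per 1e+06 gene reads), against 32 of the 99 (32.3%), and the highest mean was 2.08 CPM in the first class against 17456 CPM in the second. ATMG00730, named as cytochrome c oxidase subunit 3, held 186 reads over all libraries and its nuclear counterpart AT2G07687 held 142. ATMG00220, named as apocytochrome b, held 0 reads and AT2G07727 held 226. For ATP synthase subunit 1 the difference was larger, with 9 reads for ATMG01190 and 6650 for AT2G07698.

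Reads of the copies were few beside those of the 3 leading mitochondrial identifiers, but not beside those of the others, which held 67.7 to 330 CPM in 29 of the 30 libraries. In all, 189 nuclear genes had at least 50% of their length aligned to the mitochondrial genome, 126 of them were in the table, and together they held between 6.64 and 155 CPM in a library. Of the 93 identifiers from AT2G07660 to AT2G07835, a range of which 86 were aligned to that extent, the highest mean levels were 10.7 CPM for AT2G07680, 9.45 CPM for AT2G07698, 8.68 CPM for AT2G07690, 1.97 CPM for AT2G07739 and 1.67 CPM for AT2G07750, and AT2G07680, AT2G07690 and AT2G07750 were among the 7 that were not. Aligned genes also lay outside that range, among them AT2G07655 with 3.88 CPM, which was named after its value was seen. Reads that HTSeq set aside as not unique made up 1.73% to 7.06% of a library, and how many of them came from mitochondrial transcripts was not tested.

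Most mitochondrial identifiers gave few reads or none. Of the 152, 67 (44.1%) had no read in any of the 30 libraries, which over 711693361 gene reads allows at most 0.00422 CPM by counting error alone, taking 3 counts as the limit for a count of 0. Among the 32681 other genes 4.60% had none. The other 85 identifiers had at least 1 read, 17 had a read in every library, 35 had a mean of at least 1 CPM and 7 a mean of at least 10 CPM.

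Nearly all mitochondrial reads fell on ATMG00020, ATMG01390 and ATMG00030. Of 11845378 mitochondrial reads in all libraries these 3 took 99.0%, and ATMG00020 alone took 91.4%. Their mean levels were 17456, 956 and 816 CPM, and the next, ATMG01360, had 42.9 CPM. The sources used here give neither the identity nor the length of these 4, so levels are compared between libraries and not between identifiers. ATMG00090 had a mean of 34.8 CPM, ATMG01120 17.6, ATMG00110 11.3, ATMG00060 9.72, ATMG00070 7.51, ATMG00513 7.44, ATMG00670 6.36 and ATMG00080 6.20 CPM.

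Several libraries stood apart before any comparison. Gene reads ranged from 427064 to 122076663 with a median of 16836088.5, and the 3 shallowest libraries were stele LPi replicate 1 (427064), stele HPi replicate 1 (1097568) and pericycle LPi replicate 3 (1863306). Stele LPi replicate 1 also had the highest plastid level (10556 CPM against 176 to 6528 CPM in the other 29). The replicate 3 libraries of the epidermis at HPi and LPi were nearly identical, with a correlation of 0.996 in log2(CPM + 1) over 18065 genes, against at most 0.988 in the other 434 pairs of libraries, so they may not be separate samples. Some results that rest on these libraries are given with and without them, and a result given only once may still depend on them.

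The labels were checked against cell type markers. Summed xylem markers stood at 2098 to 5487 CPM in the stele and at no more than 99.1 CPM elsewhere, and pericycle markers at 21.9 to 110 CPM in the pericycle, although the stele reached 115 CPM. Phloem markers were higher in the pericycle at HPi (242 to 311 CPM) than in the stele (130.4 to 145 CPM). Stele HPi replicate 1 held 1275 CPM of endodermis markers. The cortex libraries held 2877 to 6346 CPM of endodermis markers against 30.3 to 40.1 CPM of cortex markers. Cortex is therefore only the label of this sort here, and results given for it are not results for cortex cells alone. Root cap markers were as high in the epidermis libraries (641 to 1193 CPM) as in those of the lateral root cap (594 to 1561 CPM), and epidermis markers as high in the lateral root cap (88.3 to 146 CPM) as in the epidermis (77.8 to 119 CPM), so these 2 sorts are not separated by their markers.

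The share of gene reads from the mitochondrial genome was higher in the epidermis and the lateral root cap than in the cortex, the pericycle and the stele. Replicates 1 to 3 of the epidermis had shares of 2.17, 3.39 and 2.89% under HPi and 2.87, 3.32 and 2.98% under LPi. In the lateral root cap the shares were 3.14, 2.89 and 2.79% under HPi and 2.28, 4.19 and 2.88% under LPi. The 12 libraries of these 2 cell types lay between 2.17% and 4.19%, with a median of 2.89%.

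The cortex-labelled sort was lowest, with shares of 1.07, 1.25 and 0.854% under HPi and 0.904, 0.601 and 0.799% under LPi. Pericycle libraries followed with 1.18, 1.49 and 1.21% under HPi and 1.13, 1.30 and 1.501% under LPi. In stele libraries the shares were 1.13, 1.7001 and 1.77% under HPi and 2.20, 1.33 and 1.12% under LPi. The 18 libraries of these 3 cell types lay between 0.601% and 2.20%, with a median of 1.19%, and the single one that reached the range of the other 2 cell types was stele LPi replicate 1, the shallowest library. Without it they ended at 1.77%.

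By mean share over 6 libraries the order was the lateral root cap (3.03% ± 0.64, SD, n = 6), the epidermis (2.94% ± 0.43), the stele (1.54% ± 0.42), the pericycle (1.30% ± 0.16) and the cortex (0.912% ± 0.224). Between neighbours in this order the libraries overlapped, except between the epidermis and the stele once stele LPi replicate 1 was left out. The share is a sum over identifiers and was given no test. It is also a ratio within a library, so more mitochondrial RNA cannot be told apart from less RNA of other kinds, and in sorted cells fewer cells of a type and less RNA per cell cannot be told apart either. Root cap markers split the libraries likewise, at 594 to 1561 CPM in the 12 with high shares. The other 18 held 0.1 to 461 CPM. Epidermis markers did so too, at 77.8 to 146 CPM against at most 70.2 CPM. Within the epidermis root cap markers were higher at the lowest share (HPi replicate 1, 1179 CPM) than at the highest (HPi replicate 2, 991 CPM). Within the lateral root cap they were lower at the lowest share (LPi replicate 1, 836 CPM) than at the highest (LPi replicate 2, 1125 CPM). The part of either marker set in the share was not tested.

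**Figure D2:**
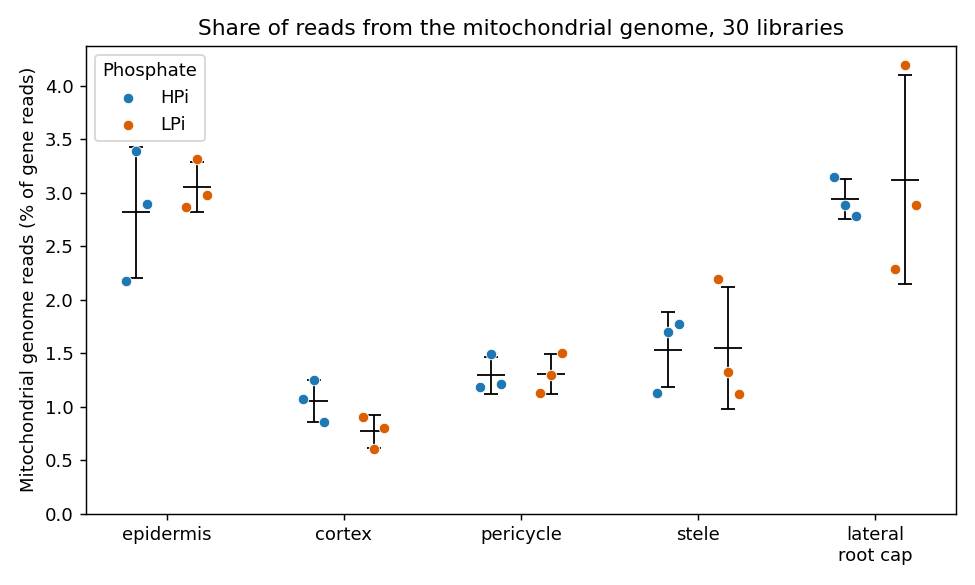
Points are libraries, placed by cell type and phosphate level, and the vertical axis is the percentage of gene reads on mitochondrial identifiers; black bars are the mean and SD of 3 libraries. The epidermis and lateral root cap libraries lie between 2.17% and 4.19%, and the others, except stele LPi replicate 1 at 2.20%, lie at or below 1.77%.

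ATMG00020 made up most of this share. In the epidermis it stood at 18886, 30680.2 and 25224 CPM at HPi and 25089.5, 29416 and 26321 CPM at LPi, and in the lateral root cap at 28303, 25905 and 23836 CPM at HPi and 19639.6, 37710.1 and 25147 CPM at LPi. In the cortex it stood at 9980.4, 11676 and 8059.6 CPM at HPi and 8122, 5354 and 7287 CPM at LPi. The epidermis and lateral root cap libraries were all above those of the cortex, with no overlap.

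In the pericycle ATMG00020 was at 11137, 14089.6 and 11249 CPM at HPi and 10667, 12174 and 13726 CPM at LPi. In the stele it was at 10218, 16143 and 16977 CPM at HPi and 17550.1, 12518 and 10588 CPM at LPi. All 18 libraries of the cortex, pericycle and stele (5354 to 17550.1 CPM) lay below all 12 of the epidermis and lateral root cap (18886 to 37710.1 CPM), stele LPi replicate 1 included. The pericycle overlapped with both the stele and the cortex, whose highest library held 11676 CPM.

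ATMG01390 separated the same cell types more widely. In the epidermis it was at 1582, 2195 and 1699 CPM at HPi and 2538, 2284 and 1624 CPM at LPi, and in the lateral root cap at 1553, 1558 and 2529 CPM at HPi and 1729.5, 2477 and 2356 CPM at LPi. In the cortex it was at 248, 230.2 and 137 CPM at HPi and 256, 127 and 116 CPM at LPi. The median of the epidermis and lateral root cap libraries was 1962 CPM, and that of the other 18 was 134 CPM.

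In the pericycle ATMG01390 was at 103, 126 and 122 CPM at HPi and 72.4, 135 and 385 CPM at LPi. In the stele it was at 267, 170.04 and 134 CPM at HPi and 1702, 129.7 and 107 CPM at LPi. Its highest values in these 2 cell types were those of the 3 shallowest libraries, 1702 CPM in stele LPi replicate 1, 385 CPM in pericycle LPi replicate 3 and 267 CPM in stele HPi replicate 1. Without stele LPi replicate 1 the cortex, pericycle and stele libraries ended at 385 CPM and did not overlap with the epidermis and lateral root cap, which started at 1553 CPM.

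ATMG01390 was thus not a constant fraction of ATMG00020. The ratio of their reads was 5.49% to 10.6% in the epidermis and lateral root cap, with a median of 7.46%. In the other 18 libraries it was 0.679% to 9.70%, or 0.679% to 3.15% with a median of 1.11% without stele LPi replicate 1. The ratio of ATMG00030 to ATMG00020 did not separate them in this way, with 2.91% to 7.17% in the first 12 and 2.71% to 8.18% in the other 18.

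ATMG00030 had the smallest range of the 3. In the epidermis it was at 1175, 892 and 1809 CPM at HPi and 981, 1133 and 1691 CPM at LPi, and in the lateral root cap at 1375, 1244 and 1421 CPM at HPi and 1343, 1529 and 1215 CPM at LPi. In the cortex it was at 319, 402 and 273 CPM at HPi and 454, 438 and 517 CPM at LPi. At LPi each cortex library was above each one at HPi.

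In the pericycle ATMG00030 was at 363, 469 and 557 CPM at HPi and 357, 428 and 805 CPM at LPi. In the stele it was at 578, 517 and 459 CPM at HPi and 913, 445 and 384 CPM at LPi. Of the 18 libraries of the cortex, pericycle and stele only stele LPi replicate 1 (913 CPM) reached the range of the epidermis and lateral root cap, which started at 892 CPM.

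**Figure D3:**
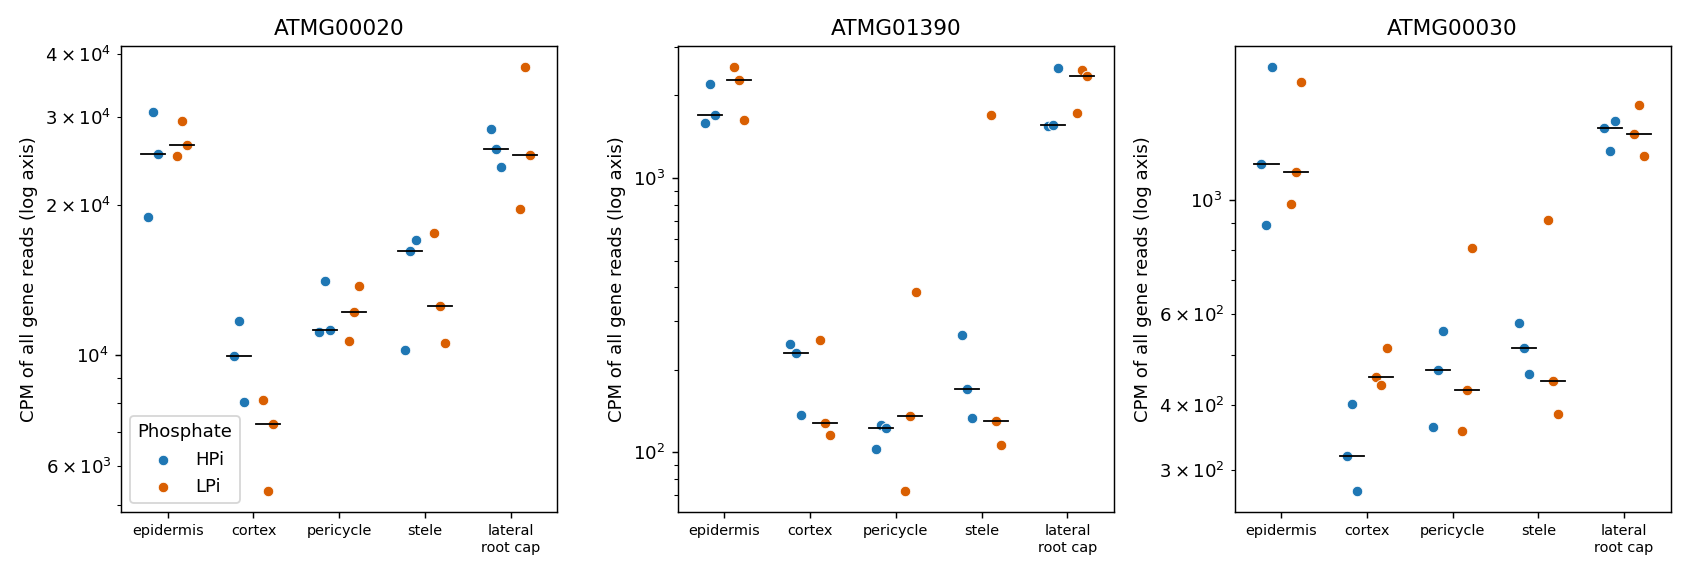
Points are libraries and black lines the median of 3, with CPM on a log axis, for the 3 identifiers with the highest means. For ATMG00020 the epidermis and lateral root cap start at 18886 CPM and the other cell types end at 17550.1 CPM; for ATMG01390 and ATMG00030 the single library that crosses is stele LPi replicate 1.

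To test where mitochondrial transcripts stood higher, each cell type was compared at HPi with the mean of the other 4 by edgeR's quasi-likelihood test, which is two-sided, with p-values adjusted over 24866 genes and calls at an adjusted p under 0.05. Of the 152 identifiers, 50 passed the filter on low counts and were tested. In the epidermis 3 of the 50 were called, all higher, where 17.8% of all genes tested were called, 11.5% higher and 6.23% lower. These were ATMG01390, with a log2 difference of 2.77 (SE 0.50, adjusted p = 0.000273), then ATMG00030 with 1.42 (SE 0.33, adjusted p = 0.00204) and ATMG00020 with 0.96 (SE 0.25, adjusted p = 0.00706). In the lateral root cap 4 were called, all higher, where 23.9% of genes were called, 12.4% higher and 11.5% lower. There ATMG01390 was higher by 2.72 (SE 0.50, adjusted p = 0.000394), ATMG00030 by 1.29 (SE 0.33, adjusted p = 0.00515) and ATMG00020 by 0.88 (SE 0.26, adjusted p = 0.0136), all on the log2 scale. Both counts were smaller shares of the identifiers tested than the share called among all genes.

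These 6 calls for the first 3 identifiers held in all 10 other settings tried and with each of the 30 libraries left out, including both nearly identical epidermis libraries. Other scalings moved the median of all genes by over 0.1 on the log2 scale in 11 of 16 comparisons, so the differences were also taken relative to that median. For ATMG00020 they were then 1.02 to 1.03 in the epidermis and 0.84 to 0.86 in the lateral root cap under 4 scalings, and for ATMG01390 2.81 to 2.84 and 2.63 to 2.70.

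In the cortex ATMG00030 alone was called, lower by 1.17 on the log2 scale (log2 difference -1.17, SE 0.39, adjusted p = 0.0481), where 11.4% of genes were called, 8.02% higher and 3.36% lower. This call was close to the threshold and was lost without any of cortex HPi replicates 1, 2 or 3, cortex LPi replicate 1, pericycle HPi replicates 2 or 3, stele HPi replicates 1, 2 or 3, or stele LPi replicates 2 or 3. ATMG00020 had a log2 difference of -0.77 (adjusted p = 0.0806) and ATMG01390 of -1.23 (adjusted p = 0.242), and neither passed.

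In the pericycle ATMG01390 was lower, with a log2 difference of -2.49 (SE 0.69, adjusted p = 0.0123), where 20.4% of genes were called, 13.2% higher and 7.17% lower. The call was lost when any of the 3 pericycle HPi libraries was left out. The 2 identifiers called higher rested on few reads. ATMG00730, the subunit 3 of cytochrome c oxidase by the RefSeq note, had 14, 56 and 14 reads at pericycle HPi (0.384, 0.459 and 0.536 CPM) and 0 reads in all epidermis and stele libraries, with a log2 difference of 3.21 (SE 1.12, adjusted p = 0.0466). ATMG00910, described as an unknown protein, had 54, 43 and 7 reads (1.48, 0.352 and 0.268 CPM) and likewise 0 in the epidermis and the stele, with 4.19 (SE 1.36, adjusted p = 0.0333). Fitted differences against groups at 0 depend on the prior count and are no measure of fold. The ATMG00730 call was kept in 5 of the 30 fits that left out a library, and the ATMG00910 call in 23. ATMG00730 was also called in the lateral root cap (log2 difference 3.59, SE 1.20, adjusted p = 0.035) on 7, 2 and 0 reads, and the difference was 0.58 without replicate 1 of that group.

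In the stele 2 were called higher, where 17.7% of genes were called, 12.1% higher and 5.68% lower. ATMG01370 had 155 and 79 reads in stele HPi replicates 2 and 3 (3.57 and 3.80 CPM) but 0 in replicate 1. Its log2 difference was 4.497 (SE 1.20, adjusted p = 0.0087), and leaving out replicate 3 ended the call. ATMG01220, an unknown protein by its note, rested on a single library, stele HPi replicate 1, with 38 reads (34.6 CPM) against at most 1.74 CPM in any other. Its log2 difference of 5.61 (SE 1.21, adjusted p = 0.0016) turned to -0.39 without that library, which is also the second shallowest and the one with 1275 CPM of endodermis markers, whose part in it was not tested.

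The same comparisons were run at LPi, a step added after the values had been seen. In the epidermis ATMG01390 was higher by 2.18 (SE 0.51, adjusted p = 0.00385), ATMG00020 by 1.03 (SE 0.25, adjusted p = 0.00465) and ATMG00030 by 0.95 (SE 0.34, adjusted p = 0.0456), among 5 called where 19.5% of genes were. The ATMG00030 call was lost without any of epidermis LPi replicate 3, cortex LPi replicate 1, pericycle LPi replicate 2, stele HPi replicate 3 or stele LPi replicates 2 or 3, and the difference was 0.54 without epidermis LPi replicate 3 and 0.55 without both nearly identical libraries. The other 2 were ATMG01220 (5.03, SE 1.41, adjusted p = 0.0134) and ATMG01170 (2.99, SE 1.01, adjusted p = 0.036), and both calls were lost without epidermis LPi replicate 2 and with the replicate block, a term that pairs same-numbered HPi and LPi libraries, which left the other 3. With the block 4599 of 24866 genes were called in this comparison. In the lateral root cap the differences were 2.29 for ATMG01390 (SE 0.51, adjusted p = 0.00248), 1.10 for ATMG00020 (SE 0.25, adjusted p = 0.00242) and 1.08 for ATMG00030 (SE 0.33, adjusted p = 0.021), and with ATMG00730 (3.80, SE 1.19, adjusted p = 0.0273) 4 were called where 21.3% of genes were. The ATMG00730 call rested on 9, 6 and 0 reads, was lost in 4 of the 30 fits that left out a library and was kept in 6 of 9 other settings. In these 2 cell types the calls of the first 3 identifiers at HPi were made again at LPi.

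In the cortex at LPi ATMG00020 passed, with a log2 difference of -1.48 (SE 0.30, adjusted p = 0.000948), as did ATMG01390 with -2.53 (SE 0.69, adjusted p = 0.018) and, higher, ATMG00730 with 4.57 (SE 1.19, adjusted p = 0.0144), which made 3 where 10.3% of genes were called. The ATMG01390 call was lost without cortex LPi replicates 2 or 3 and that of ATMG00730 without replicate 1. The ATMG00020 call held in all 10 other settings and without any of the 30 libraries. In the pericycle 3 were called where 21.8% of genes were, ATMG00090 (1.15, SE 0.38, adjusted p = 0.0303), ATMG00910 (3.98, SE 1.36, adjusted p = 0.0405) and, lower, ATMG00516 (-2.35, SE 0.84, adjusted p = 0.0429), and ATMG00910 was the only one also called at HPi. ATMG00090 was lost without pericycle LPi replicates 2 or 3, and ATMG00910 and ATMG00516 were lost in 10 and 12 of the 30 fits that left out a library.

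**Figure D4:**
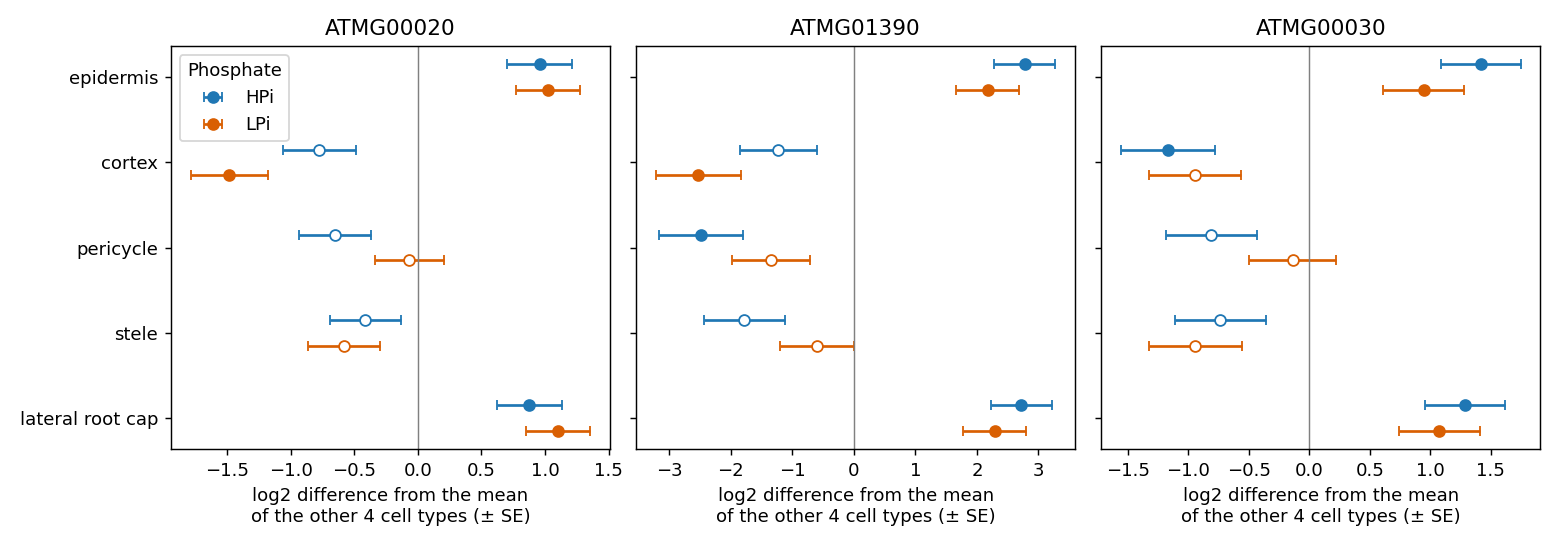
Points are edgeR log2 differences of a cell type from the mean of the other 4 at HPi and LPi, bars are ± 1 SE, and filled points passed an adjusted p of 0.05 over all genes. The epidermis and the lateral root cap lie above 0 for all 3 identifiers at both phosphate levels, and the cortex lies below 0.

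Over HPi and LPi together, 14 of the 50 tested identifiers differed between cell types, a smaller share than the 59.8% of all genes. The smallest p-values were those of ATMG01390 (adjusted p = 5.48e-07), ATMG00020 (7.01e-07) and ATMG00030 (5.04e-06), followed by ATMG00060 (0.00113) and ATMG00730 (0.00133). Without stele LPi replicate 1 the number was 10 of 51 tested, beside 14990 of 26485 genes. DESeq2 called 23 of the 50, where it called 63.8% of all genes, and limma voom 25, where it called 74.9%, so the share of identifiers was below that of all genes with each tool.

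The main question of the design was whether low phosphate changes expression in each cell type. No mitochondrial identifier was called by edgeR in any of them. In the epidermis, the cortex and the stele 0 of 24866 genes were called (0%), in the pericycle 0.00402%, in the lateral root cap 0.0241%, over the mean of the 5 cell types 0.00402% and for a response that differs between cell types 0%, so edgeR called almost no gene of any kind. An unadjusted p under 0.05 was found for 1 of the 50 identifiers in the epidermis beside 0.977% of all genes, 2 in the cortex beside 4.91%, 0 in the pericycle beside 12.3%, 10 in the stele beside 3.05% and 1 in the lateral root cap beside 6.75%. For the mean over cell types there were 4 beside 6.88% of all genes, and for a difference between responses 2 beside 5.36%. Without stele LPi replicate 1 the 10 identifiers in the stele became 1.

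Other tools called more genes at LPi but few identifiers. DESeq2 called 2 identifiers in the stele, where it called 0.121% of all genes, and 0 in the other cell types and over the mean, where it called 0.00804% of all genes in the epidermis, 0.0885% in the cortex, 6.02% in the pericycle, 0.635% in the lateral root cap and 0.153% over the mean. Limma voom called 0 identifiers in each cell type and over the mean, where it called 0% of all genes in the epidermis and the lateral root cap, 0.00804% in the cortex and over the mean, 0.00402% in the pericycle and 0.31% in the stele.

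The log2 change of ATMG00020 from HPi to LPi was 0.02 in the epidermis, -0.60 in the cortex, 0.43 in the pericycle, -0.17 in the stele and 0.15 in the lateral root cap, each with an SE of 0.34. Its mean over cell types was -0.03 (SE 0.15). The pericycle value includes the shallow pericycle LPi replicate 3, whose scaling factor was 0.495, and the part of this library was not tested. Relative to the median of all genes, the change of ATMG00020 under 4 scalings was 0.28 to 0.85 in the pericycle and -0.54 to -0.53 in the cortex. In the cortex only 1 of 3 LPi libraries (8122 CPM) fell within the range at HPi, which started at 8059.6 CPM. The log2 difference of ATMG01390 was 1.52 (SE 0.75) in the pericycle and 1.56 (SE 0.75) in the stele, and neither passed. Both rested on a shallow library, since without pericycle LPi replicate 3 and stele LPi replicate 1 the other LPi libraries of these cell types held 72.4 to 135 CPM, against 103 to 267 CPM at HPi. For ATMG00030 the mean over the cell types was 0.26 (SE 0.20), which did not pass.

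The share of mitochondrial reads overlapped between HPi and LPi in every cell type. The log2 ratio of the LPi mean to the HPi mean was 0.12 in the epidermis, -0.46 in the cortex, 0.02 in the pericycle, 0.01 in the stele and 0.09 in the lateral root cap. With ATMG00020 left out of the share the cortex ratio was 0.20 on the log2 scale.

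Stele LPi replicate 1 differed in the minor identifiers. Those other than the first 3 held 1812 CPM in it (774 reads) against 67.7 to 330 CPM in the other 29 libraries, and the first 3 made up 91.8% of its mitochondrial reads against 97.7% or more elsewhere. ATMG01120 had 155 reads there (363 CPM) against at most 13.6 CPM elsewhere, ATMG00110 had 68 (159 CPM) against 12.4, and ATMG00280, a Rubisco large chain domain by its note, had 23 (53.9 CPM) against 0.498. ATMG01360 stood at 389 CPM there and at no more than 54.7 CPM in any other library. Of the 85 identifiers with a read, 22 were highest in this library.

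Further identifiers of the first 12 were likewise highest in it. ATMG00060 had 77 reads (180.3 CPM, against at most 31.0 CPM elsewhere), ATMG00513 40 (93.7 against 9.56 CPM), ATMG00670 37 (86.6 against 18.2 CPM), ATMG00070 28 (65.6 against 14.1 CPM) and ATMG00080 14 (32.8 against 11.8 CPM). ATMG00090 went the other way, with 10 reads (23.4 CPM) against a median of 35.4 CPM elsewhere, and its highest library was pericycle LPi replicate 2 (80.0 CPM). These counts are small, and a count of 0 in this library allows up to 7.02 CPM.

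This library alone carried the stele calls at LPi, where 9 identifiers were called, all higher, against 12.4% of all genes, or 8.37% higher. The leading ones were ATMG01120 with a log2 difference of 4.16 (SE 0.66, adjusted p = 9.21e-05), ATMG00110 with 2.99 (SE 0.57, adjusted p = 0.00056), ATMG00060 with 3.70 (SE 0.75, adjusted p = 0.00122), ATMG01130 with 2.85 (SE 0.67, adjusted p = 0.00447) and ATMG01360 with 1.83 (SE 0.44, adjusted p = 0.00559). Without it 1 identifier was called, and that was lower, beside 3551 of 26485 genes called, 1258 of them lower. With the replicate block 3 of the 9 were called, ATMG01120, ATMG00110 and ATMG01130, beside 2723 of 24866 genes, 1680 of them higher. In the same library plastid reads stood at 10556 CPM, the nuclear copies at 155 CPM, the highest of all libraries, and root cap markers at 461 CPM against 120.3 to 295 CPM in the other stele libraries, and their part in these levels was not tested.

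Epidermis LPi replicate 2 showed a weaker form of this, with 330 CPM in the minor identifiers, 6528 CPM of plastid reads and 28 identifiers at their highest, although its share of mitochondrial reads (3.32%) was within the range of the epidermis. The mitochondrial genome shares sequence with that of the plastid, with 3173 bases (0.863%) aligned at 95% identity or more. Whether reads of one were counted for the other was not tested.

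**Figure D5:**
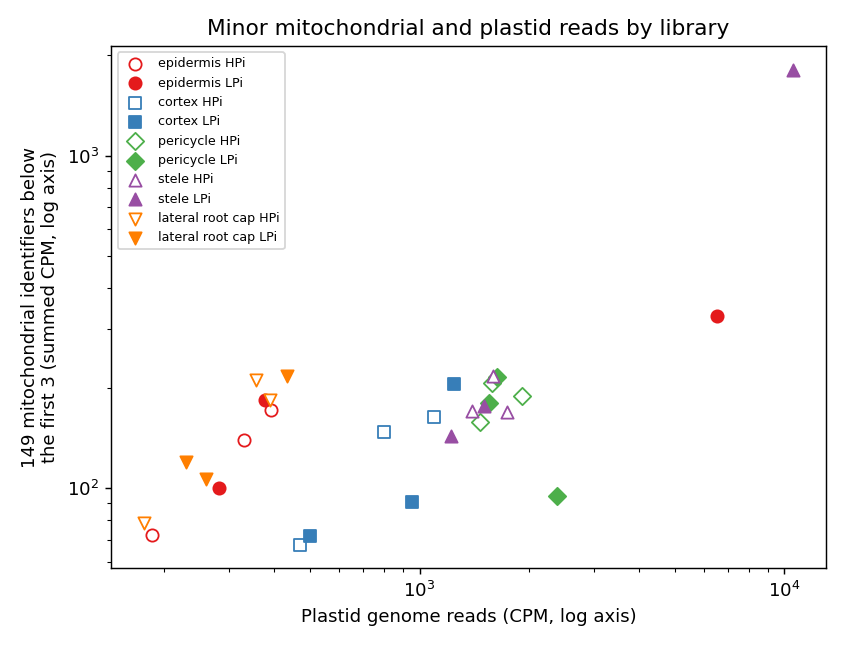
Points are libraries, with plastid reads on the horizontal and the summed level of the mitochondrial identifiers below the first 3 on the vertical axis, both in CPM on log axes; open symbols are HPi and filled ones LPi. Stele LPi replicate 1 stands apart at 1812 and 10556 CPM, and epidermis LPi replicate 2 follows at 330 and 6528 CPM.

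Plastid transcripts had another order of cell types at HPi. Over both phosphate levels their summed level had a median of 343 CPM in the epidermis and lateral root cap (176 to 6528 CPM). In the cortex, pericycle and stele the median was 1482 CPM (471 to 10556 CPM, or to 2377 CPM without stele LPi replicate 1). These ranges overlapped only through epidermis LPi replicate 2. Without it the epidermis and lateral root cap libraries ended at 433 CPM, below the 471 CPM at which the others started. At HPi 18 of 96 plastid genes tested were called higher in the pericycle, beside 13.2% of all genes, and 20 in the stele, beside 12.1%, and 20 were called lower in the lateral root cap, beside 11.5%, with list medians of 1.45, 1.43 and -1.66 on the log2 scale beside 0.18, -0.03 and 0.02 over all genes. In the epidermis 1 of 96 was called lower at HPi, beside 6.23% of all genes, with a list median of -1.34. At LPi 13 were called higher, with a list median of 1.28, where 13.5% of all genes were called higher. The LPi value rested on epidermis LPi replicate 2 (6528 CPM, against 282 and 376.6 CPM in the other 2 libraries and 185 to 392 CPM at HPi), and no plastid gene was called between LPi and HPi there.

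Nuclear genes for the same organelle were described from 8 lists with 68 genes, 67 of them tested. None was called between LPi and HPi in any cell type. Of the 40 genes listed for complexes I to IV of the respiratory chain and for ATP synthase, 2 were called in any cell type at HPi. The complex III list also holds cytochrome c. Among all genes 11.4% to 23.9% were called in a cell type. The 2 were GAMMA CA1, a carbonic anhydrase-like subunit of complex I, lower in the epidermis (-0.85, SE 0.28) and higher in the pericycle (0.90, SE 0.25), and GAMMA CA2, its relative, higher in the stele (0.71, SE 0.23). The summed level of the ATP synthase genes was 2844 CPM at epidermis HPi, 2854 CPM in the cortex, 3302 CPM in the pericycle, 3854 CPM in the stele and 3314 CPM in the lateral root cap. None of the 7 ATP synthase genes passed the joint test of cell types, beside 59.8% of all genes. At LPi more of these 40 genes were called in the pericycle, with 3 of 11 for complex I, 1 of 5 for complex II, 4 of 11 for complex III, 1 of 6 for complex IV and 0 of 7 for ATP synthase, all higher, where 13.9% of all genes were. The complex III list had a median of 0.68 there, beside -0.02 over all genes. Over all 8 lists the LPi calls were 5 in the epidermis, 0 in the cortex, 17 in the pericycle, 2 in the stele and 3 in the lateral root cap, beside 19.5%, 10.3%, 21.8%, 12.4% and 21.3% of all genes. Pericycle LPi replicate 3, a shallow library, had a scaling factor of 0.495, against 0.769 to 1.41 in all others. A low factor raises the fitted levels of a library. The list calls at LPi were not counted without this library or under other scalings, so its part in them was not tested.

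Genes for protein folding and import held some of the lists' smallest p-values. HSP60, a chaperonin, stood at 172, 268 and 237 CPM at pericycle HPi, at 56.5, 58.7 and 76.3 CPM in the stele and at 9.25, 7.82 and 6.33 CPM in the lateral root cap. It was higher in the pericycle by 3.53 on the log2 scale (SE 0.39, adjusted p = 4.78e-07) and lower in the lateral root cap (log2 difference -2.42, SE 0.54, adjusted p = 0.00186). HSC70-5, a mitochondrial Hsp70, was at 575, 769 and 616 CPM in the pericycle and called there (2.68, SE 0.41). TOM20-3, a receptor for imported proteins, was called higher in the pericycle (1.42, SE 0.51) and the stele (2.17, SE 0.50) and lower in the lateral root cap (-4.94, SE 0.84). It held 0.677, 0.0631 and 0.0838 CPM at lateral root cap HPi, so the difference there is no measure of fold. Of the 6 genes of this list 3 were called higher in the pericycle (13.2% of all genes), 1 higher in the stele (12.1%) and 2 lower in the lateral root cap (11.5%), with medians of 1.34, 0.84 and -1.15 on the log2 scale beside 0.18, -0.03 and 0.02 over all genes.

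Of 10 genes for mitochondrial gene expression 4 were called higher in the pericycle, beside 13.2% of all genes, namely PMH1 and PMH2, which are RNA helicases, nMAT2, an intron maturase, and RNR1, a ribonuclease, with log2 differences of 2.46, 0.95, 2.03 and 0.97 (SE 0.85, 0.32, 0.61 and 0.33). The list had a median of 0.99 in the pericycle and -0.998 in the lateral root cap, beside 0.18 and 0.02 over all genes. In the joint test 5 of its 10 genes were called, beside 59.8% of all genes. In the lateral root cap PMH1 (-5.51, SE 1.51) and PMH2 (-1.999, SE 0.40) were lower, in the stele PMH1 was higher (2.68, SE 0.86), and in the cortex PMH2 was higher (1.31, SE 0.32). PMH1 held 0.451, 0.126 and 0 CPM at lateral root cap HPi, so its difference there is no measure of fold.

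Among 11 tested genes of the mitochondrial stress response, AOX1A, the main alternative oxidase of the respiratory chain, was at 450.4, 177 and 548 CPM in the cortex and 85.5, 61.7 and 62.3 CPM in the pericycle. It was called higher in the cortex (1.42, SE 0.26, adjusted p = 0.000258) and lower in the pericycle (-2.08, SE 0.33, adjusted p = 4.93e-05), although cortex HPi replicate 2 lay below every HPi library of the epidermis, the stele and the lateral root cap. NDA2, an alternative NADH dehydrogenase, was higher in the cortex (1.78, SE 0.41) and the pericycle (1.32, SE 0.42) and lower in the epidermis (-2.12, SE 0.53). ANAC017, a transcription factor of mitochondrial signalling, was higher in the cortex (0.87, SE 0.23), NDB2 was higher in the stele (0.91, SE 0.23) and lower in the lateral root cap (-1.10, SE 0.27), and NDA1 was higher in the lateral root cap (3.13, SE 0.88). In all, the lists gave 0 genes higher and 2 lower in the epidermis, 4 and 0 in the cortex, 9 and 1 in the pericycle, 4 and 0 in the stele and 1 and 5 in the lateral root cap, with 31 of 67 in the joint test beside 59.8% of all genes. In each cell type these are smaller shares of the 67 than the 17.8%, 11.4%, 20.4%, 17.7% and 23.9% of all genes called there. Without pericycle HPi replicates 2 or 3 the pericycle count fell from 10 to 3, without stele HPi replicates 2 or 3 that of the stele fell from 4 to 1, and without cortex HPi replicate 3 that of the cortex fell from 4 to 1. Without pericycle LPi replicate 3 the counts were 4 in the epidermis, 10 in the stele and 10 in the lateral root cap. All these counts with a library left out lack the share of all genes called in the same fit. They show only how far the counts moved.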

How the data were processed

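RNA of sorted root cells was measured in 30 libraries. The authors deposited raw gene counts per library, and the submitters' processing notes name CASAVA 1.4, FastQC 0.11.9, MultiQC 1.7, STAR 2.5.3a, HTSeq 1.99.2 and DESeq2. For the counting, the build, annotation and strandedness were not given in the sources used here, so overlapping and antisense genes cannot be told apart. The 5 HTSeq summary lines (4.99% to 12.5% of reads) were left out of totals, and 0 columns lacked a sample.

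CPM was the count divided by all gene reads of the library. Counts were fitted over all 30 libraries with a term per group in edgeR 4.0.16 (R 4.3.3, robust quasi-likelihood fit, TMM scaling, filterByExpr), with Benjamini-Hochberg adjustment over 24866 genes and a threshold of 0.05 for the adjusted p. The SE of a log2 difference was derived from its F value. Alternatives were DESeq2 1.42.0, limma 3.58.1 voom with sample weights, other scalings, filters and denominators, a replicate block, and leaving libraries out. The scripts were tested on simulated data. Floors and counts of 0 cover counting error only. Nuclear copies were sought by aligning the RefSeq TAIR10.1 mitochondrial genome to the rest of that assembly, in which gene names and notes were also looked up.

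Deviations from the group means were correlated between HPi and LPi libraries of the same replicate number. The values were r = 0.211, 0.152 and 0.320 in the epidermis and 0.222, 0.125 and 0.168 in the stele. They were -0.074 to 0.042 in the cortex, 0.018 to 0.062 in the pericycle and 0.003 to 0.111 in the lateral root cap. The 0.320 is that of the nearly identical epidermis libraries. Libraries with different numbers were not compared, so pairing was not tested, and the labels say nothing on shared batches.

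The members and lists were chosen with earlier results of these data known. Identifiers named were the 12 with the highest mean CPM, up to 5 called in each direction per comparison by smallest p, those with 1 library over 10 times the next and at least 50 CPM, up to 4 called genes per list and comparison, and the 5 highest of the chromosome 2 range. Other identifiers were named after their values were seen. The comparisons at LPi and the shares without the 3 leading identifiers or with aligned nuclear genes were likewise added after the data had been seen.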

Additional observations from a re-analysis of the deposited data

How the results depend on the processing

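The calls of ATMG00020, ATMG01390 and ATMG00030 as higher in the epidermis and the lateral root cap at HPi held under all alternatives run. Over all named identifiers and settings 1412 values kept their direction and stayed called or uncalled, 150 lost the call and 27 reversed. The 1412 include the mean LPi changes of these 3 identifiers, which were not called. They also include many fits that left out a library of a group not compared. Counts of calls depended more on the tool. In the cortex at HPi, 1 identifier became 2 with DESeq2, without scaling, with totals over nuclear genes, with no filter, with a filter of 5 CPM in 3 libraries and without the epidermis replicate 3 libraries, 3 without the 3 shallowest libraries and at LPi, and 4 with limma voom. These 4 were beside 23.2% of all genes. In the pericycle 3 became 7 without scaling and 15 with voom, where 22.4% and 48.5% of all genes were called. In the stele 2 became 4 with RLE size factors, 5 with DESeq2, 12 with voom and 9 at LPi, beside 17.9%, 22.8%, 46.6% and 12.4% of all genes, and the epidermis count of 3 became 5 at LPi. Over all cell types 14 became 23 with DESeq2 and 25 with voom (63.8% and 74.9% of all genes), and DESeq2 called 2 for LPi against HPi in the stele (0.121%). The cause was not tested. Leaving out 1 library at a time gave counts of 3 to 3 in the epidermis, 0 to 2 in the cortex, 0 to 6 in the pericycle (0 without pericycle HPi replicate 1), 1 to 5 in the stele (1 without stele HPi replicate 1, 5 without pericycle LPi replicate 3), 3 to 6 in the lateral root cap, 10 to 21 over all cell types, and 0 for each LPi comparison. These ranges stand without the share of all genes called in each fit, so they show only how far the counts moved.

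Values that turned sign rested on single libraries or lay near 0. Without the 3 shallowest libraries ATMG01220 in the stele at HPi was -0.51 (-0.39 to 6.96 with 1 library left out, lowest without stele HPi replicate 1), and in the stele at LPi ATMG00060 was -0.25, ATMG00160 -0.43, ATMG00513 -0.25, ATMG00516 -0.24, ATMG00670 -0.12 and ATMG01360 -0.28. With 1 library left out, ATMG00060 ranged from -0.34 to 4.296, ATMG00160 from -0.36 to 3.41, ATMG00513 from -0.045 to 3.17, ATMG00516 from -0.11 to 3.13 and ATMG01360 from -0.095 to 2.31, each lowest without stele LPi replicate 1. For the mean change at LPi, ATMG00020 was 0.11 with DESeq2, 0.11 with RLE size factors, 0.022 with the filter of 5 CPM and -0.15 to 0.013 with 1 library left out, ATMG01390 was -0.12 without the 3 shallowest libraries, and ATMG00030 was -0.024 with voom and -0.017 without the 3 shallowest libraries.

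The log2 ratio of the LPi to the HPi share moved to 0.68 in the epidermis, -0.039 in the cortex and 1.94 in the stele without the 3 leading identifiers, to 0.20 in the cortex, 0.22 in the pericycle and 1.12 in the stele without ATMG00020, and with pooled reads to -0.19 in the pericycle and -0.50 in the stele. With 1 library left out it ranged from -0.04 to 0.27 in the epidermis, -0.59 to -0.31 in the cortex, -0.09 to 0.13 in the pericycle, -0.32 to 0.20 in the stele and -0.19 to 0.27 in the lateral root cap.

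With the replicate block, which pairs the HPi and LPi libraries of a cell type, the counts at LPi against HPi remained 0 in each cell type. At most 1 of 24866 genes was called there. The counts at HPi were 3 in the epidermis, 1 in the cortex, 4 in the pericycle, 2 in the stele and 3 in the lateral root cap, with 13 over all cell types. Of the 24866 genes 4370, 2965, 5698, 4226, 5352 and 13802 were called, in the same order. At LPi the block left 3 of 9 calls in the stele and 3 of 5 in the epidermis, and the calls lost were ATMG00060, ATMG00160, ATMG00513, ATMG00516, ATMG00670 and ATMG01360 in the stele and ATMG01170 and ATMG01220 in the epidermis. A count of 0 allows up to 7.02 CPM in the shallowest library, against 0.0246 CPM in the deepest.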
